A study of Mus musculus with 8 samples.

Results

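The genes described here are 41 genes of DNA replication and S phase, chosen by name from a table of 14608 genes, and all 41 were measured. They were grouped by role into the MCM helicase subunits (6 genes), origin recognition and helicase loading (5 genes), helicase activation (6 genes), the sliding clamp and its loader (6 genes), the DNA polymerases with primase (8 genes), the single-strand binding protein RPA (3 genes), the flap endonuclease, ligase and uracil glycosylase (3 genes) and deoxynucleotide synthesis (4 genes). RNA of the embryonic outflow tract (OFT), the vessel through which blood leaves the developing heart, was sequenced at E11.5 in 4 libraries labelled Control, with no further genotype given, and in 4 labelled *Mib1V943F/+ Gata6STOP/+* (mutant). The mutant embryos carried a missense allele of *Mib1*, an E3 ubiquitin ligase required for NOTCH signalling, and a null allele of *Gata6*, a transcription factor, each in 1 copy and in trans. The labels give 3 individuals per pool, whereas the methods of the study describe another number of pools and of OFT per pool, so the number of embryos behind a library is uncertain, and nothing states whether pools shared a litter. The comparison asks whether the RNA of the replication machinery differed between the genotypes.

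Before a cell copies its DNA, the origin recognition complex, with Cdc6 and Cdt1, loads the MCM ring onto origins. In S phase Cdc45 and the GINS complex join the ring to make the active helicase, primase and DNA polymerase alpha lay down primers, and polymerases epsilon and delta extend them on the PCNA clamp, which the RFC complex opens and closes. Many of these genes are transcribed at the transition from G1 to S under E2F transcription factors, so their RNA is commonly read as a sign of how many cells in a tissue are cycling. In RNA of whole tissue, fewer cycling cells and less RNA per cycling cell cannot be told apart.

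Each library held between 10669420 (control 2) and 30469165 (mutant 3) reads on listed genes, and 1 read was worth 0.0948 CPM (counts per 1000000 reads) in control 2 and from 0.0325 to 0.0467 CPM in the other libraries. The replication genes had from 104 to 8071 reads per gene and library. *Gata6* RNA did not separate the groups, with 262 ± 18.5 CPM (SD, n = 4) in control and 249 ± 36.1 CPM (SD, n = 4) in mutant libraries, and neither did *Mib1* RNA, with 122 ± 15.6 and 128 ± 6.62 CPM (limma adjusted p = 0.752 for *Gata6* and 0.746 for *Mib1*). Gene-level values do not tell the alleles apart, so the direction of every comparison rests on the labels. Among markers of the cell types in the OFT, all 9 of cardiomyocytes were detected, and 7 of them had lower values in every library labelled mutant than in every control, with summed levels of 24533 to 28875 CPM in control and 19370 to 23167 CPM in mutant libraries. The part of this difference in the replication genes' values was not tested. All 6 erythroid markers were detected too, at summed levels of 1632 to 3326 CPM in control and 1391 to 4928 CPM in mutant libraries, and none passed an unadjusted p of 0.05. Of the pharyngeal endoderm and epithelium markers, *Epcam*, *Cdh1*, *Foxa2* and *Nkx2-1* had no row in the table.

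A motif at the start sites, which the choice of genes did not use, was found in some of the replication genes. Of the 41 genes, 34 matched a RefSeq promoter window (GRCm38.p6) of 300 bases, 250 before the annotated start and 50 after it, and *Mcm4*, *Gins1*, *Gins2*, *Gins4*, *Rfc2*, *Prim2* and *Pole* had no window. An E2F motif was searched on both strands as the letters TTTCGCGC, TTTGGCGC, TTTCCCGC or TTTGCCGC, of which the first pair overlap on opposite strands in the run TTTGGCGCGAAA. The first listed window held the motif in 12 of 34 replication genes (35.3%) against 4.13% of the 10773 genes of the table with a window, and in 1 of 14 G2 and mitosis genes (7.14%). The motif was not particular to these genes, since other lists described below held it in their first windows too. It stood in 4 of 11 origin licensing and firing genes and 7 of 20 E2F, RB and G1/S regulators. The counts were 4 of 14 fork, 2 of 10 chromatin replication and 0 of 7 nucleotide supply genes. The 12 replication genes were *Mcm3*, *Mcm5*, *Mcm6*, *Mcm7*, *Orc1*, *Cdc6*, *Cdt1*, *Gins3*, *Rfc3*, *Pola1*, *Pold1* and *Pole2*. The letters TTTGAA, the cell cycle homology region typical of G2 and mitosis promoters, showed the opposite arrangement, in 4 of 34 replication genes (11.8%), 10 of 14 G2 and mitosis genes (71.4%) and 11.9% of all genes with a window. CCAAT stood in 64.7% of the replication windows, 92.9% of the G2 and mitosis windows and 39.0% of all windows. The 170 bases before the start are printed 5′ to 3′ on the gene's strand for 3 genes with the motif there and 2 without, with the motif in capitals. They are shown because the genes with the motif include members that hardly differed between the groups (*Mcm5*), while *Cdt1* and *Tyms* are among the few whose groups did not overlap. The stretch of *Mcm5* is chr8:75109339-75109508 (plus strand), that of *Mcm6* chr1:128359706-128359875 (minus), of *Pola1* chrX:93632156-93632325 (minus), of *Cdt1* chr8:122567845-122568014 (plus) and of *Tyms* chr5:30073626-30073795 (minus). The motif counted for *Cdt1* lies in the 50 bases after its start, which are not printed.
Mcm5: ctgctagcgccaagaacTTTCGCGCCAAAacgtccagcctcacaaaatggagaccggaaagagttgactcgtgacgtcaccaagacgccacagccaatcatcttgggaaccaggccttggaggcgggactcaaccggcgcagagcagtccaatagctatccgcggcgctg
Mcm6: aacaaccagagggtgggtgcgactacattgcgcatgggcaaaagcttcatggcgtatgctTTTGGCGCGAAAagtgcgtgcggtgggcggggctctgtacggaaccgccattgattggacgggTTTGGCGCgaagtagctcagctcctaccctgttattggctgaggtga
Pola1: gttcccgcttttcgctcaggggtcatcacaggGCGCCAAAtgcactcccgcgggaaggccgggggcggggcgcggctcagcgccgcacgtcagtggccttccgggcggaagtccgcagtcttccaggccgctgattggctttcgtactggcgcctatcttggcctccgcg
Cdt1: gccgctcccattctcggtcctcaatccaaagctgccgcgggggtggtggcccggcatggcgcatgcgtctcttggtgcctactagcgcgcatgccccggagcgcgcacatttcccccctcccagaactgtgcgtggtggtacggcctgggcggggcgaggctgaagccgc
Tyms: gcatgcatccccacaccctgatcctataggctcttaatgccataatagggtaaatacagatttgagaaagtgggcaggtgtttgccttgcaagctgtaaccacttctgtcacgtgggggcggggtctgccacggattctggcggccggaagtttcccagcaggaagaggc
Genes with and without the motif had similar differences between groups. The 13 genes with it in any window had a median log2 fold change, mutant minus control, of 0.02 (from -0.22 to 0.20), and the 21 with a window and no motif had a median of 0.02 (from -0.24 to 0.23). A match of letters is a description of the sequence and not of a bound factor.

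As a group, the replication genes stood at nearly the same level in both genotypes. The summed level of the 41 genes was 3125, 3209, 3145 and 3128 CPM in control 1 to 4 and 3306, 3312, 3134 and 3133 CPM in mutant 1 to 4, a mean of 3151.8 ± 39.3 against 3221 ± 102 CPM (SD, n = 4) and a ratio of 1.02. Mutant 1 and mutant 2 were above every control, while mutant 3 and mutant 4 lay within the control range. Mutant 1 and mutant 2 also had the highest summed erythroid markers, 4297 and 4928 CPM, and the part of those cells in the result was not tested. The median log2 fold change of the 41 genes was 0.02, beside 0.00 over all genes. Of the 41, 27 had a fold change over 0, against 50.4% of all genes, and the values ran from -0.24 (*Ung*) to 0.23 (*Prim1*).

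No replication gene passed an adjusted p of 0.05 with limma and Benjamini-Hochberg adjustment over 14608 genes, where 0% of all genes were called. The same count was 0 of 41 with the quasi-likelihood test of edgeR (0% of all genes), 0 of 41 with its likelihood ratio test (0.732%) and 0 of 41 with DESeq2 (1.46%). At an unadjusted limma p of 0.05, 7 of 41 genes passed (17.1%, against 12.1% of all genes), and the other tests gave 8 (quasi-likelihood, 11.7% of all genes), 5 (likelihood ratio, 11.4%) and 6 (DESeq2, 12%). Of the 7, *Mcm4*, *Rfc3*, *Prim1*, *Pole2* and *Tyms* had higher values in the mutant libraries (5 genes, background 5.45%), and *Cdt1* and *Ung* had lower values (2 genes, background 6.62%). Leaving out 1 library at a time moved the first count to between 1 and 5 (1 without control 3, mutant 1 or mutant 2) and the second to 1 without control 1 or control 2. The groups did not overlap for 5 genes (background 7.1%), of which *Mcm4*, *Rpa3* and *Tyms* were higher in every mutant library (background 3.2%) and *Cdt1* and *Ung* were lower in every one (background 3.9%). Scaling every library to the same total made these counts 6 higher and 1 lower, and quantile normalization made them 5 higher and 2 lower. Equal totals also raised the median log2 fold change over all genes, from 0.00 to 0.02. Without control 1 or mutant 4 the higher count was 5, and without mutant 3 it was 7. Leaving out a library can only keep or raise such a count. Shares of all genes are not given for any of these settings.

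The data bounded the differences closely. The 95% interval of the fold change lay within 1.5-fold in either direction for 41 of 41 genes, against 83.4% of all genes. The lowest bound was a fold of 0.738 (*Ung*) and the highest 1.37 (*Prim1*), and the interval included no change for 34 of the 41. For 25 of them the estimate itself was under 0.1 on the log2 scale (61.0%, against 47.3% of all genes). Differences of a few percent were not detectable here, since the median interval reached 0.167 to either side on the log2 scale.

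**Figure D1:**
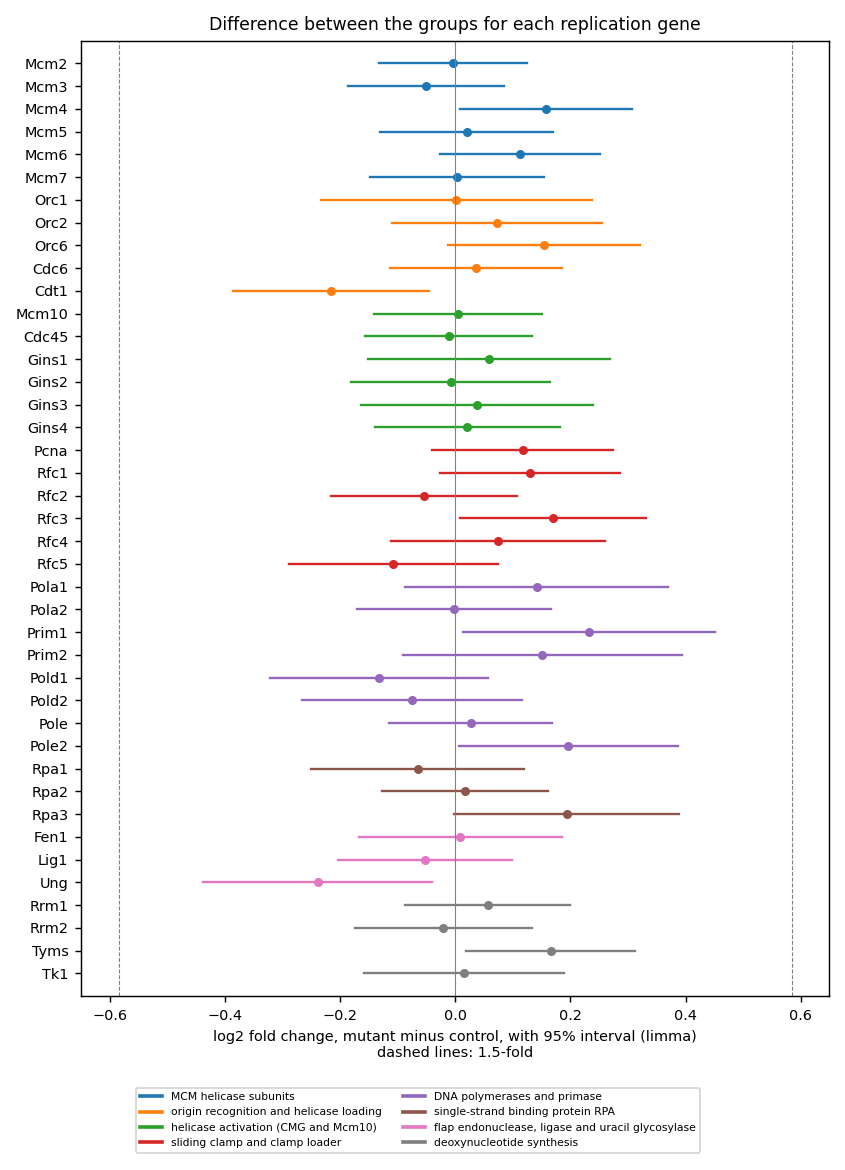
Log2 fold change of each of the 41 replication genes, mutant minus control (horizontal axis), with its 95% limma interval (bars) and colours for the functional groups; n = 4 libraries per group. All intervals lie between the dashed lines at 1.5-fold, and *Prim1* (0.23) and *Ung* (-0.24) are the outermost estimates.

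The 6 subunits of the MCM2-7 ring, the motor of the replicative helicase, had a median log2 fold change of 0.01, and 5 of the 6 lay between -0.05 and 0.11. *Mcm4* (ENSMUSG00000022673, chromosome 16 from 15623897 to 15637400, GRCm38) had 160.5, 153.6, 146.6 and 162.8 CPM in control and 166.8, 193.0, 172.0 and 164.9 CPM in mutant libraries. Every mutant library was above every control, by a small margin except in mutant 2. The log2 fold change was 0.16 (SE 0.0688; limma p = 0.0401, adjusted p = 0.402; exact permutation p = 0.0286, the smallest that 4 against 4 allows), and the limma p stayed under 0.05 in 4 of 8 fits without 1 library, not without control 2, control 3, mutant 2 or mutant 3. *Mcm7*, the subunit with the highest level per length, had 186.2, 195.1, 207.9 and 181.7 CPM in control and 194.2, 209.5, 191.2 and 178.0 CPM in mutant libraries, with the groups interleaved and a log2 fold change of 0.00 (95% interval -0.15 to 0.15). *Mcm2*, *Mcm3*, *Mcm5* and *Mcm6*, at -0.00, -0.05, 0.02 and 0.11, had overlapping groups.

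Among the origin recognition and loading genes, 4 of 5 had a fold change over 0 and *Cdt1* stood apart. *Cdt1* (ENSMUSG00000006585, chromosome 8 from 122568015 to 122573554), the loader that brings MCM rings to origins, had 51.0, 56.9, 56.6 and 52.6 CPM in control and 48.1, 41.1, 50.2 and 47.5 CPM in mutant libraries. All mutant libraries were below all controls, and mutant 2 was the lowest. The mean was 54.3 ± 2.92 against 46.7 ± 3.90 CPM (SD, n = 4), a log2 fold change of -0.22 (SE 0.0782; limma p = 0.0170, adjusted p = 0.335; exact permutation p = 0.0286). It is the only replication gene whose limma p was under 0.05 in 8 of 8 fits without 1 library. With each library's trend with GC content removed, the log2 fold change was -0.11. *Cdc6*, its partner in loading, had 31.9 ± 1.05 and 32.7 ± 1.14 CPM, a log2 fold change of 0.04. *Orc6*, the subunit of the origin recognition complex with the highest level per length, had 43.4, 48.6, 47.4 and 47.9 CPM in control and 54.1, 57.1, 47.4 and 50.4 CPM in mutant libraries, so that every mutant library but mutant 3 was above every control, with a log2 fold change of 0.15 (SE 0.0767, adjusted p = 0.439 with limma). *Orc1*, the lowest of all 41 genes at 8.97 CPM, and *Orc2* had changes of 0.00 and 0.07.

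The genes of helicase activation differed least of the groups. All 6 had log2 fold changes between -0.01 and 0.06, and none passed an unadjusted p of 0.05. *Cdc45*, which with GINS turns the loaded ring into the moving helicase, had 31.8, 32.1, 31.9 and 30.6 CPM in control and 30.5, 32.1, 31.9 and 30.9 CPM in mutant libraries. Its highest library was 1.05 times its lowest, the smallest spread among the 41 genes. *Gins4*, the GINS subunit with the highest level per length, had 33.6, 31.0, 35.4 and 34.1 CPM in control and 32.9, 36.0, 34.8 and 32.4 CPM in mutant libraries, with full overlap and a log2 fold change of 0.02 (95% interval -0.14 to 0.18). *Mcm10*, which helps to start the activated helicase, had 33.0 ± 1.11 and 33.1 ± 0.525 CPM.

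*Pcna*, the sliding clamp that tethers the polymerases, had 186.4, 186.8, 199.2 and 198.9 CPM in control and 213.1, 234.5, 199.9 and 191.2 CPM in mutant libraries. Mutant 1, mutant 2 and mutant 3 were above every control and mutant 4 was inside the control range, so the groups overlapped. The log2 fold change was 0.12 (SE 0.0721, limma adjusted p = 0.518). Of the 5 subunits of the clamp loader, *Rfc3* (ENSMUSG00000033970, chromosome 5 from 151642756 to 151651242) had 38.5, 39.5, 34.2 and 36.4 CPM in control and 41.7, 43.6, 43.2 and 38.9 CPM in mutant libraries. Only mutant 4 fell below the highest control. The change of *Rfc3* was 0.17 on the log2 scale (SE 0.0744; limma p = 0.0411, adjusted p = 0.402; exact permutation p = 0.0571), and the limma p was under 0.05 in 3 of 8 fits without 1 library, those without control 1, control 2 or mutant 4. The other loader subunits gave 0.13 (*Rfc1*), 0.07 (*Rfc4*), -0.05 (*Rfc2*) and -0.11 (*Rfc5*), and none of these 4 passed an unadjusted p of 0.05. The 95% intervals of these 4 all included 0, and differences between subunits were not tested.

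The log2 fold changes of the polymerase and primase genes ran from -0.13 to 0.23, and 5 of 8 were over 0. *Prim1* (ENSMUSG00000025395, chromosome 10 from 128015168 to 128030037), the catalytic primase subunit that starts every new strand, had 37.4, 29.3, 37.2 and 36.7 CPM in control and 41.3, 47.3, 36.9 and 39.8 CPM in mutant libraries. Control 2 was the lowest library and mutant 2 the highest, and mutant 3 overlapped the controls. The log2 fold change was 0.23 (SE 0.101; limma p = 0.0392, adjusted p = 0.402; exact permutation p = 0.0857), and the limma p was over 0.05 without control 2, mutant 1, mutant 2 or mutant 4. *Pole2*, an accessory subunit of the leading strand polymerase epsilon, had 18.88, 17.16, 18.48 and 20.04 CPM in control and 21.10, 23.44, 19.54 and 21.70 CPM in mutant libraries, where mutant 3 alone fell below control 4. Its log2 fold change was 0.20 (SE 0.0874; limma p = 0.0440, adjusted p = 0.404; exact permutation p = 0.0571), with a limma p under 0.05 in 2 of 8 fits without 1 library, those without control 4 or mutant 3.

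*Pold1*, the catalytic subunit of the lagging strand polymerase delta, had 69.8, 92.0, 80.0 and 71.9 CPM in control and 75.2, 68.1, 70.2 and 70.8 CPM in mutant libraries. The mutant libraries were close together and the controls spread out, with control 2 the highest. The log2 fold change was -0.13 (SE 0.0869, limma adjusted p = 0.539). Its partner *Pold2* had 46.2, 55.4, 50.1 and 41.2 CPM in control and 47.3, 44.7, 45.8 and 44.2 CPM in mutant libraries, again with control 2 the highest and the mutant libraries inside the control range. The catalytic subunits of the other polymerases, *Pole* and *Pola1*, had changes of 0.03 and 0.14 and adjusted p-values of 0.882 and 0.582 with limma. *Pola2*, the accessory subunit of polymerase alpha, was at 44.7 ± 1.94 and 44.7 ± 3.85 CPM (SD, n = 4).

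RPA, the trimer that coats single-stranded DNA at the fork, gave different values for its subunits. *Rpa3* (ENSMUSG00000012483, chromosome 6 from 8255936 to 8259173), the smallest subunit, had 22.1, 27.5, 25.9 and 28.1 CPM in control and 29.0, 31.8, 29.4 and 28.1 CPM in mutant libraries. The groups did not overlap, though mutant 4 lay just above control 4. The log2 fold change was 0.19 (SE 0.0898; limma p = 0.0517, adjusted p = 0.417; exact permutation p = 0.0286). *Rpa1* and *Rpa2* had changes of -0.07 and 0.02, and both had overlapping groups.

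Of the enzymes that finish and correct new strands, *Ung* had the lowest ratio of all 41 genes. *Ung* (ENSMUSG00000029591, chromosome 5 from 114130386 to 114139323) encodes the glycosylase that removes uracil from DNA, and had 38.6, 38.5, 34.8 and 34.5 CPM in control and 33.8, 26.1, 32.2 and 32.1 CPM in mutant libraries. Every mutant library was below every control, mutant 2 by the widest margin. The mean was 36.6 ± 2.26 against 31.0 ± 3.38 CPM (SD, n = 4), a log2 fold change of -0.24 (SE 0.0913; limma p = 0.0224, adjusted p = 0.360; exact permutation p = 0.0286), and the limma p stayed under 0.05 in 6 of 8 fits without 1 library, not without control 1 or control 2. *Lig1*, the ligase that joins Okazaki fragments, had 119.1, 137.3, 122.0 and 124.9 CPM in control and 128.2, 111.2, 122.6 and 123.1 CPM in mutant libraries, with control 2 the highest, mutant 2 the lowest and the rest interleaved. *Fen1*, which trims the flaps before ligation, was at 55.9 ± 5.92 and 56.0 ± 2.45 CPM.

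The log2 fold changes of the enzymes of deoxynucleotide supply ran from -0.02 to 0.17, and differences between them were not tested. *Tyms* (ENSMUSG00000025747, chromosome 5 from 30058202 to 30073617), which makes thymidylate, had 49.0, 51.3, 51.1 and 52.3 CPM in control and 60.6, 58.9, 56.9 and 52.5 CPM in mutant libraries. The groups did not overlap, and mutant 4 lay just above control 4. The log2 fold change was 0.17 (SE 0.0677; limma p = 0.0307, adjusted p = 0.385; exact permutation p = 0.0286), and the limma p was over 0.05 without control 1, control 3, mutant 1 or mutant 3. *Rrm2*, the S phase subunit of ribonucleotide reductase, had 159.2, 160.3, 143.4 and 161.3 CPM in control and 167.5, 156.0, 140.3 and 151.9 CPM in mutant libraries, with control 3 and mutant 3 the lowest of their groups. *Rrm1*, its partner subunit, had 266 ± 9.16 and 277 ± 18.7 CPM, and *Tk1*, the salvage kinase for thymidine, had 53.7 ± 5.15 and 54.1 ± 2.58 CPM, with log2 fold changes of 0.06 and 0.02. The plot of every gene in every library shows these patterns side by side.

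**Figure D2:**
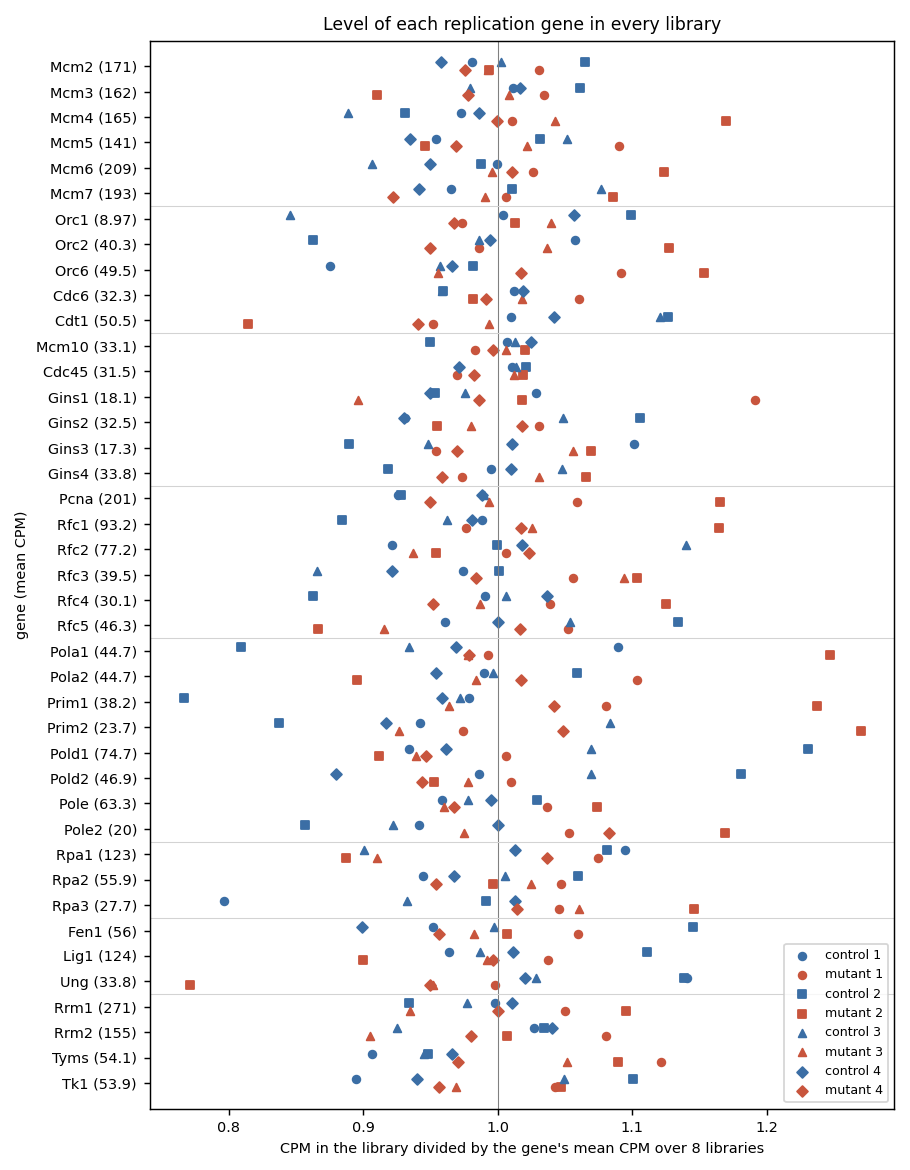
CPM of each replication gene in each library divided by that gene's mean over 8 libraries (horizontal axis, no unit), with the mean CPM beside the gene name, control libraries in blue, mutant libraries in red and 1 marker shape per replicate number. Most points lie near 1, *Cdc45* most tightly, and the outlying points are mainly control 2 and mutant 2 (squares).

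The replication genes varied little between replicates. Their median SD within groups was 0.0977 on the log2 scale, from 0.0329 (*Cdc45*) to 0.175 (*Prim2*), beside 0.127 for the 9958 genes in the same range of mean CPM (8.97 to 271), and 34 of 41 were below that value. For the median gene the highest of 8 libraries was 1.24 times the lowest. This ratio was over 1.5 for 3 genes, *Pola1*, *Prim1* and *Prim2*, all subunits of the polymerase alpha and primase complex. Each had its lowest value in control 2 and its highest in mutant 2. The pattern was not shared by *Pola2*, the other subunit of that complex, which had a ratio of 1.23 and its lowest value in mutant 2.

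Levels can be set between genes only per length. *Pcna* was the highest at 133 CPM per kb of its longest protein-coding transcript (127 ± 4.75 in control, 138 ± 12.4 in mutant libraries), followed by *Rrm2* (70.7), *Rrm1* (67.8) and *Mcm7* (65.1), whose spreads overlapped. The 6 MCM subunits lay between 41.8 and 65.1 CPM per kb, and *Rpa3* (41.4) and *Lig1* (38.9) came close below. *Orc6* (33.8) was well above its complex partners *Orc2* (11.3) and *Orc1* (2.98), the lowest of the 41. *Gins4* (25.0) led the GINS subunits, ahead of *Gins1* (16.7), *Gins2* (8.34) and *Gins3* (6.86), and *Pold2* (28.5) led the polymerases, while *Pole* and *Pola1* stood at 8.84 and 8.35. Per kb of all annotated exons, a length chosen after seeing the data, *Pcna* was at 83.9 and the MCM subunits at 24.6 to 46.0, with *Mcm4* in place of *Mcm7* as the highest, so the order among neighbours depends on the length used.

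**Figure D3:**
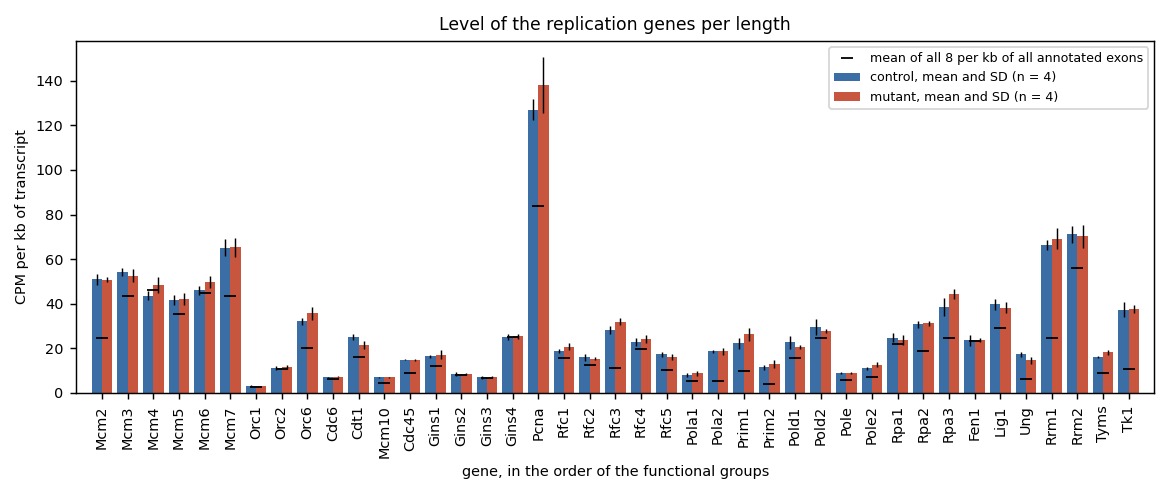
Mean CPM per kb of transcript of each replication gene in control (blue) and mutant (red) libraries, with SD over 4 libraries as error bars and a dash for the mean of all 8 libraries per kb of all annotated exons. *Pcna* is the highest at 133 CPM per kb and *Orc1* the lowest at 2.98.

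The differences among the replication genes followed the GC content of their transcripts. Across the 41 genes, Pearson's r of the log2 fold change with transcript GC percent (40.45 to 60.74) was -0.77 and Spearman's rho -0.76, as a description over genes that share 8 libraries, and r over all genes was -0.37. The 20 genes under the median of 48.89% GC had a median log2 fold change of 0.12, and 19 of 20 were over 0. The 20 above it had a median of -0.01, and 8 of 20 were over 0. All genes of the table below and above that GC content had medians of 0.08 and -0.05. The highest fold changes of the 41 genes were those of *Prim1* (44.28% GC), *Pole2* (44.67%) and *Rpa3* (40.45%). The lowest were those of *Ung* (57.4%), *Cdt1* (58.79%) and *Pold1* (60.74%). These were not simply the extremes of GC content. *Pola1* (41.47%), *Rfc4* (43.47%), *Orc2* (44.37%) and *Rrm1* (44.38%) were more GC-poor than *Pole2* but had smaller changes of 0.14, 0.07, 0.07 and 0.06. *Pold2* (58.75%) was more GC-rich than *Ung* and was at -0.08.

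**Figure D4:**
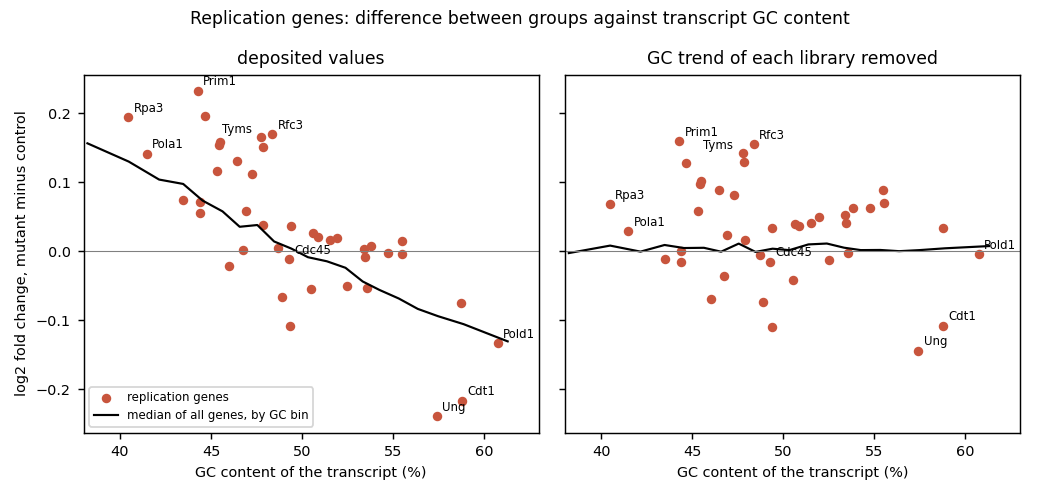
Log2 fold change of each replication gene, mutant minus control (vertical axis), against GC percent of its transcript (horizontal axis), as deposited (left) and after removal of every library's GC trend (right); the black line joins the medians of all genes in bins of GC content. The points run down from *Prim1* and *Rpa3* to *Cdt1* and *Ung* on the left and spread around 0 on the right.

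The relation differed between libraries. Within single libraries, r between a gene's deviation from its 8-library mean and its GC content was 0.78 in control 2, 0.59 in control 3, -0.74 in mutant 2 and -0.43 in mutant 4, and between -0.29 and 0.06 in the other 4. Control 2 was the library with the fewest reads. In control 2 the 20 GC-poor genes lay 0.11 below and the 20 GC-rich genes 0.10 above their means on the log2 scale, and in mutant 2 they lay 0.17 above and 0.06 below. Of the 41 genes, 35 (85.4%) had their highest or lowest value in 1 of these 2 libraries, against 74.7% of all genes. *Mcm3*, *Cdt1*, *Rfc5*, *Pold1* and *Lig1* were highest in control 2 and lowest in mutant 2 (5 genes, 12.2%, against 11.2% of all genes), and *Orc2*, *Gins4*, *Rfc1*, *Rfc4*, *Pola1*, *Prim1*, *Prim2*, *Pole2* and *Rrm1* were the reverse (9 genes, 22.0%, against 12.01%).

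**Figure D5:**
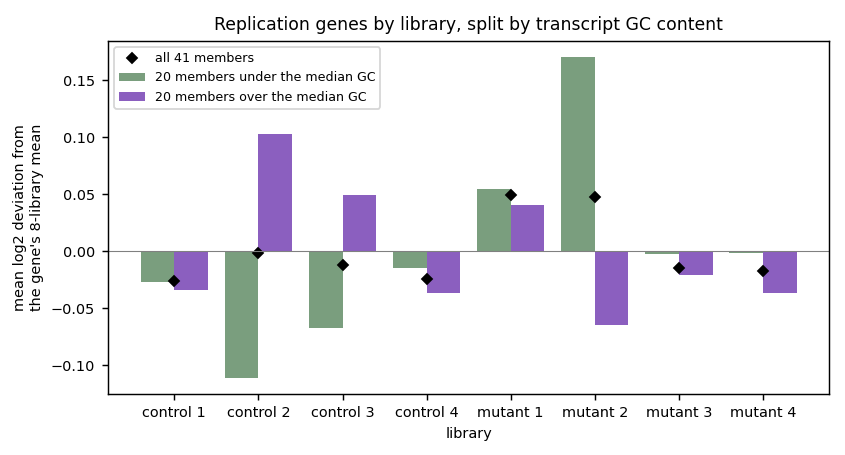
Mean log2 deviation from each gene's 8-library mean (vertical axis) in each library (horizontal axis) for the 20 replication genes under and the 20 over the median GC content (bars) and for all 41 (diamonds). The bars part most in control 2 (-0.11 and 0.10) and mutant 2 (0.17 and -0.06), while the diamonds stay between -0.03 and 0.05.

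Leaving out 1 library at a time, r over the 41 genes ran from -0.83 to -0.61, and without both control 2 and mutant 2, a setting chosen after seeing the data, it was -0.40. With the GC trend of each library removed it was -0.28. The GC-poor and GC-rich genes then had medians of 0.06 and 0.04, and the 41 genes ran from -0.14 to 0.16. In that limma fit 2 of 41 genes had an unadjusted p under 0.05 (background 11.2%), *Rfc3* at 0.16 and *Tyms* at 0.14, and 0 of 41 passed Benjamini-Hochberg adjustment. *Cdt1* (-0.11), *Ung* (-0.14), *Prim1* (0.16) and *Mcm4* (0.10) kept their sign with unadjusted p-values of 0.0597, 0.0815, 0.0554 and 0.0665. *Pole2* fell from 0.20 to 0.13 in that fit, and *Rpa3*, the most GC-poor of the 41 genes, fell from 0.19 to 0.07. Neither was among the 2 genes past the unadjusted threshold. What set the GC trends of the libraries was not tested.

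The other genes of the pathway also differed little between the groups. Of 94 companion genes, all measured, 0 passed an adjusted limma p of 0.05, and 9 had an unadjusted p under 0.05, of which 8 had the higher mean in mutant libraries and 1 in controls (backgrounds 5.45% and 6.62%). The count of 9 was 2 without control 2, 5 without control 3 or mutant 2, and 15 without control 4. Of the 94, the groups did not overlap for 6 with higher and 0 with lower values in mutant libraries (backgrounds 3.2% and 3.9%). Among the origin licensing and firing genes, 13 of 14 had a fold change over 0, against 50.4% of all genes. Their median was 0.08, and 0.03 with the GC trend of each library removed. In that list *Mtbp*, which helps to fire origins, was at 0.19 (limma adjusted p = 0.412). Of 18 fork genes 2 did not overlap, both higher in the mutant libraries, *Atad5*, which unloads PCNA, at 0.25 (adjusted p = 0.352) and *Pold3*, a subunit of polymerase delta, at 0.10 (adjusted p = 0.520). Among 9 nucleotide supply genes *Cmpk1*, a pyrimidine nucleotide kinase, did not overlap, at 0.22. Of the 10 chromatin replication genes, *Slbp*, which binds histone mRNA, and *Cdca7*, a partner of the remodeller HELLS, did not overlap, at 0.20 and 0.21 (limma adjusted p = 0.326 and 0.376).

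The E2F, RB and G1/S regulators, which sit upstream of the replication genes, split evenly, with 14 of 28 over 0 and a median of -0.00. Their values ran from -0.35 to 0.29. At an unadjusted limma p under 0.05, 1 had higher and 1 lower values (backgrounds 5.45% and 6.62%). *E2f5*, a member of the repressive branch of the E2F family, had 27.3, 22.3, 27.8 and 27.2 CPM in control and 28.2, 35.7, 33.2 and 31.3 CPM in mutant libraries. The groups did not overlap, with control 2 the lowest and mutant 2 the highest library, and the log2 fold change was 0.29 (SE 0.0975, limma adjusted p = 0.313). None of the 15 G2 and mitosis genes passed an unadjusted p of 0.05, and their median was 0.01. *Cdc20*, an activator of the anaphase-promoting complex, had the smallest p among them, with a log2 fold change of -0.13 (limma adjusted p = 0.495). The 94 companions followed GC content as well, with r = -0.65, and -0.03 after removal of the trends.

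The 41 genes lay on 13 chromosomes, and 11 of them (26.8%) had a protein-coding gene starting on the opposite strand within 1000 bp of their own start, against 15.4% of 13243 protein-coding genes of the table. The pairs included *Mcm4* with *Prkdc* (466 bp between starts), *Orc1* with *Prpf38a* (87 bp) and *Cdc45* with *Ufd1* (208 bp). The libraries were directional, but whether counting used the strand is not given in the sources used here. Another annotated gene overlaps 21 of the 41 genes, *Cdt1*, *Pole2*, *Orc6* and *Pold1* among them, and the share over all genes is not given here. *Cdt1* and *Pole2* each overlap a protein-coding gene on the same strand, where the strand of a read cannot part them. *Pcna* has 2 annotated pseudogenes of its name and *Tyms* has 1, so their values may hold shared reads.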

How the data were processed

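RNA of E11.5 OFT was sequenced in 4 libraries labelled Control and 4 labelled *Mib1V943F/+ Gata6STOP/+*. Per the methods of the study, the authors trimmed 60 bp single-end reads with cutadapt 1.18, quantified genes with RSEM 1.2.3 on GRCm38, retained genes that reached 1 CPM in 3 or more samples, and applied TMM factors with edgeR 3.32.1. The deposited values are CPM after TMM, for 14608 genes, and 0 columns were left out. In every library 100% of the values were whole multiples of 1 read within 1e-08, which gave back whole read counts for the count tests.

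Groups were compared with limma 3.58.1 (lmFit and eBayes with a trend, two-sided) on log2(CPM + 0.5) in R 4.3.3, over all genes, and p-values were adjusted by Benjamini-Hochberg at a threshold of 0.05. Fold changes are on that scale, which understates changes of low genes. Single genes were also tested by exact permutation over 70 relabellings, two-sided and unadjusted, whose smallest p is 0.0286. edgeR 4.0.16 and DESeq2 1.42.0 were run on the recovered counts as alternatives. limma, the edgeR tests and DESeq2 were run on simulated counts that held no GC trend, and the permutation test was not. Transcript GC content, gene lengths and neighbours came from GENCODE for GRCm38, and the trend of each library with GC content was removed by loess (span 0.5). Per-library values were given for replication genes with an unadjusted p under 0.05 or groups that do not overlap, the 3 largest fold changes in each direction and the gene with the highest level per length in each functional group. Of each companion list, up to 3 genes whose groups do not overlap, or the one with the smallest p, were named. Their fold changes were given, with library values for *E2f5* only. The genes, the lists and this rule were chosen with earlier results of these data known. Chi-square values per gene between replicates were 6.67 to 33.7, and no library duplicated another.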

Additional observations from a re-analysis of the deposited data

Results flagged for a closer look

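In 82 groups of 4 libraries tested (41 genes in each genotype), 3 held a library that stood apart from the other 3 by Dixon's criterion, and chance alone gives about 4.1. *Pola1* was at 55.7 CPM in mutant 2, against 43.7 to 44.3 CPM in the other mutant libraries. *Prim1* was at 29.3 CPM in control 2, against 36.7 to 37.4 CPM in the other controls. *Rrm2* was at 143 CPM in control 3, against 159 to 161 CPM in the other controls.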

How the results depend on the processing

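Under every alternative, 0 replication genes and 0 companions passed an adjusted p of 0.05, and the median log2 fold change of the replication genes stayed between 0.01 and 0.04. Of 861 recomputed fold changes of single replication genes, 781 kept their sign, and 80, of 25 genes whose own values were at most 0.14 in size, took the other sign. Leaving out the mean-variance trend, asking for a mean of at least 5 CPM, or adding the replicate block cannot change these fold changes. The block with the GC trend removed repeats the values of that removal alone. The 781 therefore include values whose sign could not turn. Same-numbered libraries did not pair: their deviations correlated from -0.19 to 0.03, and 0 controls correlated best with the mutant library of their number. With the replicate number as a block, 0 replication genes (5 without it) had higher and 2 lower values at an unadjusted p under 0.05, and 4 companions passed (9 without it). The share of all genes with the block is not given here, so these counts cannot be set against a background.

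The other counts that moved by over 1.5 times were as follows, and smaller rises in the number with higher values at an unadjusted p were from 5 to 7 with equal library totals and to 6 with a mean of at least 5 CPM or the quasi-likelihood test. With equal library totals, 6 and 1 replication genes did not overlap in the higher and lower direction and 14 companions passed an unadjusted p. That setting also raised the median log2 fold change over all genes, to 0.02. With quantile normalization 5 did not overlap as higher. With no mean-variance trend and with the likelihood ratio test 3 had higher values at an unadjusted p. With the GC trend removed 2 were higher and 0 lower at an unadjusted p, and 0 and 1 did not overlap; with the replicate block too the first counts were 1 and 0. Without control 2 and mutant 2, a setting chosen after seeing the data, they were 2 and 0, with 4 companions. Without 1 library at a time, higher counts ran from 1 to 5 and lower from 1 to 2. Those not overlapping as higher ran from 3 to 7 (7 without mutant 3), and leaving out a library cannot lower that count. Companions ran from 2 (without control 2) to 15 (without control 4). The cause of these changes was not tested. In either direction, 11.4% of all genes passed an unadjusted p with the likelihood ratio test and 11.7% with the quasi-likelihood test. With the GC trend removed, 11.2% passed. Shares of all genes are not given for the other settings, nor for groups that do not overlap under any setting here. Those counts cannot be set against a background.

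Signs turned as follows on the log2 scale. Equal library totals gave *Mcm2* 0.0178, *Cdc45* 0.00983, *Gins2* 0.0137, *Pola2* 0.0192, *Rrm2* 0.00116. Quantile normalization gave *Mcm2* 0.0115, *Orc1* -0.00835. The quasi-likelihood test gave *Pola2* 0.00197, the likelihood ratio test *Pola2* 0.00249 and DESeq2 *Mcm10* -0.00238, *Pola2* 8.88e-05. With the GC trend removed, with or without the replicate block, the values were *Mcm2* 0.0699, *Orc1* -0.0357, *Orc2* -0.000141, *Mcm10* -0.00566, *Gins2* 0.0413, *Rfc4* -0.0109, *Pola2* 0.0624, *Pold2* 0.0333, *Rrm1* -0.0158. Without 1 library, or without control 2 and mutant 2, the values ran for *Mcm2* -0.025 to 0.0279, *Mcm3* -0.0758 to 0.00632, *Mcm5* -0.0194 to 0.0675, *Mcm7* -0.0364 to 0.0417, *Orc1* -0.0729 to 0.0465, *Orc2* -0.0312 to 0.112, *Mcm10* -0.028 to 0.0172, *Cdc45* -0.0275 to 0.000659, *Gins1* -0.0157 to 0.118, *Gins2* -0.0424 to 0.0588, *Gins3* -0.0361 to 0.0899, *Gins4* -0.0431 to 0.0466, *Rfc2* -0.101 to 0.000762, *Rfc4* -0.027 to 0.108, *Pola1* -0.0175 to 0.209, *Pola2* -0.0507 to 0.0763, *Pold2* -0.147 to 0.00209, *Pole* -0.00325 to 0.0502, *Rpa1* -0.125 to 0.00745, *Rpa2* -0.00714 to 0.0517, *Fen1* -0.0395 to 0.0758, *Lig1* -0.0799 to 0.0306, *Rrm1* -0.00195 to 0.0971, *Rrm2* -0.0622 to 0.0229, *Tk1* -0.0346 to 0.0643.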

Other observations

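Markers of the other cell types that OFT tissue can hold had few values past an unadjusted p, and the lists were not tested against each other. Of 8 cushion mesenchyme markers, 0 had an unadjusted limma p under 0.05, and the median log2 fold change was 0.07, with *Postn*, a matrix protein of the cushions, at 0.21 (adjusted p = 0.639), a value that was -0.01 without mutant 2. Of 7 markers of endocardium and endothelium, 1 had lower values at an unadjusted p under 0.05, *Emcn*, a sialomucin of endothelial cells, at -0.57 (adjusted p = 0.280). The median of the 7 was -0.08, with 4 under 0 and 3 over 0, *Pecam1* at 0.08, *Tek* at 0.11 and *Nfatc1* at 0.10. Among 4 smooth muscle markers *Myh11*, the smooth muscle myosin heavy chain, was higher in every mutant library at 0.78 (adjusted p = 0.270) from 2.77 to 5.16 CPM, while the median was 0.02. The 5 epicardium markers had a median of 0.10 with 0 past an unadjusted p of 0.05, the 7 macrophage markers a median of 0.02 with 1 lower (*Lyz2*, -0.35, adjusted p = 0.402), and the 2 measured epithelial markers, *Krt8* and *Krt18*, were both at 0.04. Of the 4 measured markers of neural crest, glia and neurons, *Elavl4*, a neuronal RNA-binding protein, was higher in every mutant library at 0.65 (adjusted p = 0.270), *Tubb3* was at -0.08 and *Sox10* at -0.43, and the median was 0.05. Examples in each list were chosen after their values were seen. The cardiomyocyte markers had a median of -0.33, with *Tnnt2* at -0.35, *Myh7* at -0.39, *Myl4* at -0.32 and *Tnni1* at -0.33 past an adjusted p of 0.05 with edgeR's likelihood ratio test (0.0145, 0.00798, 0.0426 and 0.0396), while limma gave adjusted p-values of 0.206 to 0.249 for them.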
